A study of Sus scrofa with 26 samples.

Results

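The pig genes SAL1, LOC100524282, SELENOF, C1GALT1 and CYCS are described here in subcutaneous adipose tissue (SCAT), the fat layer under the skin. The 5 genes were chosen by their breed difference on the same arrays, because at least 1 of their probes lay far apart between Large White and Creole pigs. They are 5 of 11602 named genes on the array, and 25 of its 60306 spots carry a probe for them: 14 for CYCS, 6 for SELENOF, 2 for SAL1, 2 for LOC100524282 and 1 for C1GALT1. All 25 probes passed the filter on dim signals, which asks for 8 or more arrays well above background. The C1GALT1 probe had 9 such arrays, and 8 of them were Creole, so it passed only through the breed where it is high. Since the breed difference chose the genes, every breed value of these probes is a description and carries no test.

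RNA of 26 growing castrated male pigs was hybridised on 26 one-colour arrays, 1 animal per array. The pigs were Creole, a local breed of the Caribbean, Large White (LW), a commercial breed, or F1, the Large White by Creole cross. Thermoneutral (TN) pigs were kept at 24 °C and heat-stressed (HS) pigs at a temperature that the labels give as 30 °C and the series text as 32 °C for 5 days, while the methods give 4 or 5 days. The groups held 3 TN and 5 HS Creole, 4 TN and 5 HS F1, and 4 TN and 5 HS LW pigs. TN pigs left the trial before the room was warmed, so temperature and day of slaughter cannot be told apart. By the methods the animals came in blocks of littermates, and the labels name neither litter nor pen, so the p-values take as independent some pigs that were related.

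SCAT stores triglyceride in adipocytes, and vessels, immune cells and neighbouring muscle or skin add RNA to a biopsy of it. Of 10 adipocyte markers, 9 were measured and all 9 were well above background on every array. Skeletal muscle markers were also present, with 10 of 10 well above background on every array and a mean score between −2.42 and 2.82 log2 around the array average. Between 68.5 and 76.6% of spots per array were well above background, none was saturated, and the correlation between any 2 arrays lay between 0.972 and 0.993, so no 2 arrays held the same values. In a tissue sample, fewer cells of a type and less RNA per cell cannot be told apart.

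The members have unrelated roles. LOC100524282 is annotated as similar to ribosomal protein L37a, a part of the large ribosomal subunit. CYCS is cytochrome c, the small haem protein that carries electrons to cytochrome oxidase and, once released from mitochondria, starts apoptosis. SELENOF is a selenoprotein of the endoplasmic reticulum that binds the folding sensor of glycoproteins. C1GALT1 is the core 1 synthase, which adds galactose to the first sugar of mucin-type O-glycans. SAL1 is salivary lipocalin, known as a pheromone carrier of boar saliva. A probe on this array is a stretch of 60 bases, and its level depends on how well the transcripts of an animal pair with those bases.

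Levels are given in log2 of the quantile-normalized intensity, on which 1 unit is a doubling. For each gene, the probe with the largest difference between LW and Creole is called its gap probe. The 26 levels of a probe were sorted, and the widest step between neighbours with at least 2 arrays on each side was taken. A step of at least 1 log2 was called a separation into 2 classes. It occurred in 272 of 44703 tested probes, or 0.608%, and in 4 of the 25 member probes, each of them the gap probe of its gene. Because the levels chose the genes, nothing is read from that count. The 4 steps were 4.61 for LOC100524282, 3.17 for CYCS, 3.09 for SELENOF and 2.58 for C1GALT1. The member just short of the limit was the SAL1 gap probe, with a step of 0.67, and the nearest inside it was C1GALT1. Only 3 probes in all, its own included, had a step as wide as that of LOC100524282.

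**Figure D1:**
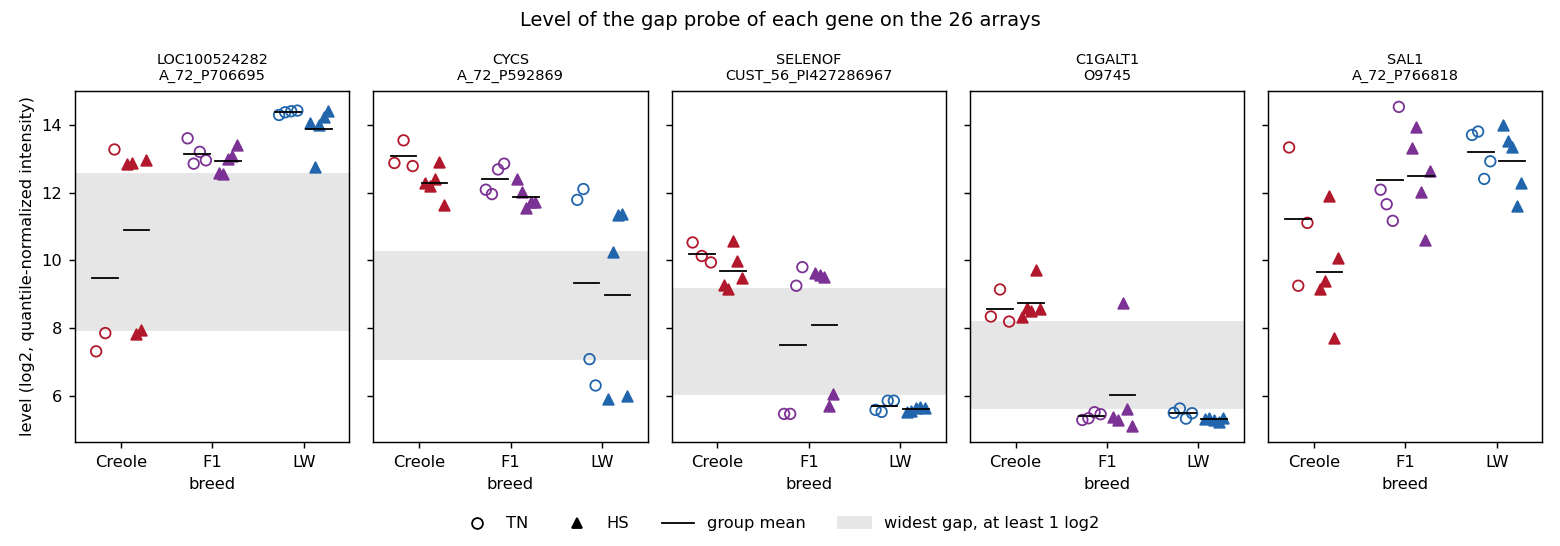
Level of the gap probe of each gene (log2 of the quantile-normalized intensity) by breed, with circles for TN arrays, triangles for HS arrays, black lines for group means and grey bands for a widest gap of at least 1 log2. The low arrays are 4 Creole arrays for LOC100524282 and 4 LW arrays for CYCS, F1 arrays lie on both sides for SELENOF, 1 F1 array lies with the Creole arrays for C1GALT1, and SAL1 has no gap by this rule.

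**Figure D2:**
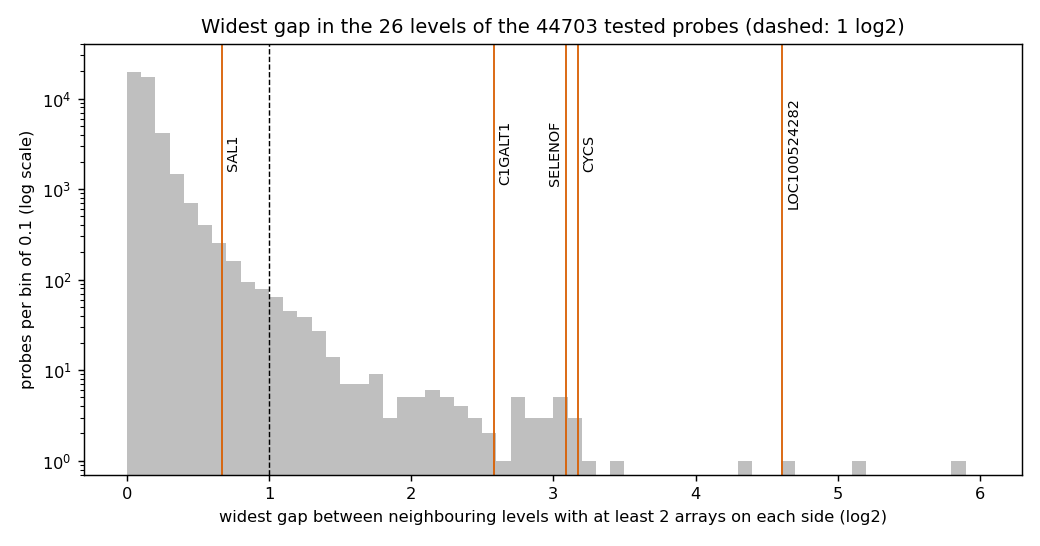
Number of probes (log scale) by the widest gap between neighbouring levels (log2), over the 44703 tested probes, with the 5 gap probes as orange lines and the limit of 1 log2 as a dashed line. The gaps of 4.61, 3.17, 3.09 and 2.58 lie in the sparse right tail and that of SAL1, 0.67, lies left of the limit.

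LOC100524282 lies on chromosome 14, from 92254240 to 92254598 of the Sscrofa11.1 build, a gene model of 359 bases. Its gap probe A_72_P706695 shares 51 bases with A_72_P514819, a probe that the array lists under the transcript AK346581 and that has no gene name here. Over those bases the sequences differ at 4 places. The 30 bases shown, 10 to 39 of the gap probe and 1 to 30 of the other, hold 3 of the 4 differences, in capitals. They are T17C, A22G and C29T, counted from 1 at the 5′ end of the gap probe with its own base first, and they are shown because the levels of this pair differed so much.
A_72_P706695: gaagcacTaccaAtggaaaCtttgctagcc
A_72_P514819: gaagcacCaccaGtggaaaTtttgctagcc

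The low arrays of the LOC100524282 gap probe were all from Creole pigs. In Creole TN pigs the levels were 7.31, 7.85 and 13.28, and in Creole HS pigs 12.85, 12.88, 7.82, 7.94 and 12.97. Thus 2 of 3 TN and 2 of 5 HS Creole arrays were low, and none of the 18 other arrays was. In F1 pigs the levels were 13.61, 12.86, 13.21 and 12.96 in TN and 12.58, 12.55, 13.00, 13.10 and 13.41 in HS. The 4 higher Creole arrays lay inside that F1 range. LW pigs had 14.30, 14.38, 14.41 and 14.43 in TN and 14.06, 12.76, 13.99, 14.24 and 14.41 in HS, so that 8 of 9 LW arrays lay above every F1 and Creole array. LW HS replicate 2, at 12.76, lay among the F1 levels.

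The LW minus Creole difference of this probe was 3.75 ± 0.74 (SE, n = 9 and 8), a 13.5-fold higher level in LW. The Creole mean behind it, 10.36, averages both classes, and no single Creole array was near it. F1 lay 0.80 ± 0.63 (SE, n = 9) above the mean of the parent breeds. The low arrays were not empty, since all 26 were well above background. The second probe of the gene, A_72_P489742, overlaps the gap probe by 10 identical bases and lay between 14.47 and 15.42 on all arrays. Its LW minus Creole difference was 0.48 ± 0.09 (SE), far smaller than that of the gap probe. The 4 Creole arrays that were low on the gap probe were also its 4 lowest, at 14.47, 14.50, 14.55 and 14.60, with the next array close by at 14.71. The AK346581 probe, with the differing bases, ranged only from 16.00 to 16.78, with means of 16.26 ± 0.17 (SD, n = 8) in Creole and 16.62 ± 0.14 (SD, n = 9) in LW. The same 4 Creole arrays were its 4 lowest too, at 16.00, 16.16, 16.18 and 16.19, with the next array close by at 16.23.

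Among the 22 arrays of the upper class, the levels of both LOC100524282 probes rose together. Pearson's r was 0.90 and Spearman's rho 0.793, and r was 0.873 over 20 arrays without the 2 farthest from the median. Correlations with a gap probe are descriptions with no test, since its levels chose the gene. These 22 arrays span the breeds, so the relation holds the step from F1 and Creole to LW as well as the spread within breeds.

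**Figure D3:**
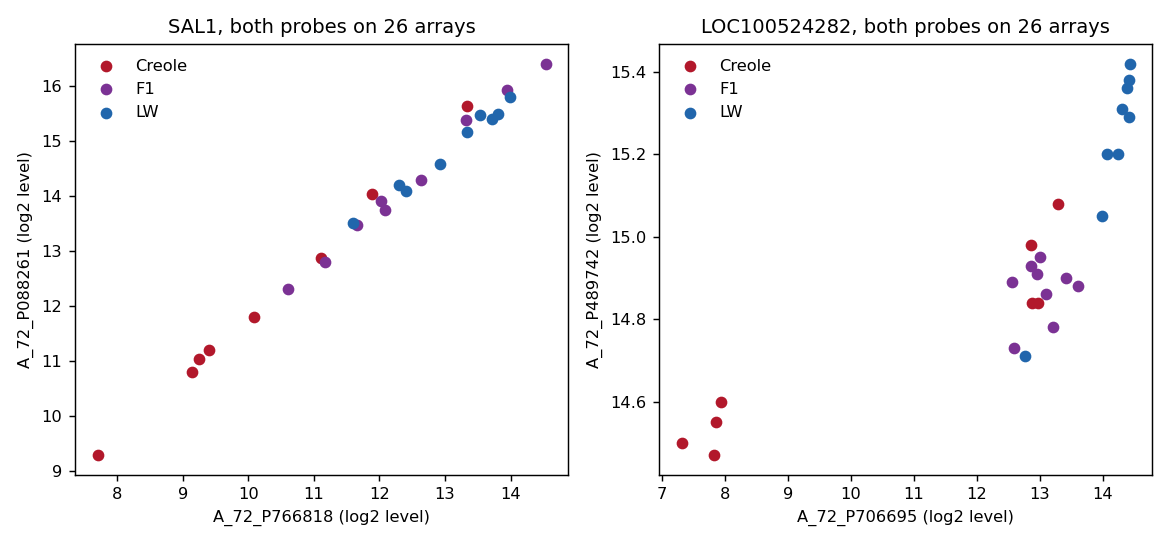
Levels (log2) of both probes of SAL1 (left) and of LOC100524282 (right) on the 26 arrays, coloured by breed. The SAL1 points lie along 1 line from 7.70 to 14.54 on the x axis, with 1 Creole array at 7.70 and the next at 9.14, and the LOC100524282 points fall into 4 Creole arrays at 7.31 to 7.94 and the other 22 arrays above 12.5.

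CYCS lies on chromosome 18, from 47169921 to 47172212 (Sscrofa11.1). Its gap probe A_72_P592869 and the probe A_72_P573694 share 52 bases with 3 differences, all of them in the 30 bases shown in capitals, which are 1 to 30 of the gap probe and 9 to 38 of the other. The differences are G9A, G11C and C21T, counted from the 5′ end of the gap probe. The pair is shown because its breed differences were so unlike.
A_72_P592869: gctgtaccGtGagcacagatCtgtaaatta
A_72_P573694: gctgtaccAtCagcacagatTtgtaaatta

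On the CYCS gap probe the low arrays were all from LW pigs. LW TN pigs had 11.79, 12.11, 7.08 and 6.30, and LW HS pigs had 5.90, 10.25, 11.34, 11.36 and 5.98. The 4 low arrays were thus 2 of 4 in TN and 2 of 5 in HS. Creole levels were 12.88, 13.55 and 12.79 in TN and 12.28, 12.20, 12.42, 12.90 and 11.64 in HS. F1 levels were 12.09, 11.96, 12.69 and 12.86 in TN and 12.40, 12.02, 11.56, 11.73 and 11.72 in HS. No Creole or F1 array lay in the low class, and the 5 higher LW arrays reached from 10.25, below every Creole and F1 array, to 12.11. All 26 arrays were well above background. The LW minus Creole difference was −3.50 ± 0.76 (SE), an 11.3-fold higher level in Creole, and F1 lay 1.24 ± 0.64 (SE) above the mean of the parents. The LW mean behind both, 9.12, averages both classes and lies inside the step from 7.08 to 10.25.

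The probe that differs from it at 3 bases had no such gap. A_72_P573694 lay between 11.65 and 13.49, with an LW minus Creole difference of −0.14 ± 0.22 (SE). In the 22 arrays of the upper class, r between the pair was 0.167 and rho 0.157, and r was 0.11 without the 2 farthest arrays. Over the same 22 arrays, r of the gap probe with the other 12 CYCS probes ran from −0.074 for A_72_P485031 to 0.803 for A_72_P555705, and was 0.732 for A_72_P621955 and 0.73 for A_72_P681213. Over the 13 CYCS probes other than the gap probe the difference ran from −0.98 to 0.05. Of these, 9 lay more than 0.4 log2 lower in LW. All 10 skeletal muscle markers were also lower in LW, with differences of −1.19 to −0.25 and a mean score of 0.48 in Creole (−1.44 to 2.82) and −0.40 in LW (−2.42 to 1.94). The adipocyte score was 0.01 to 0.44 in Creole and −0.24 to 0 in LW. The part of either in the CYCS difference was not tested. The other 4 were A_72_P573694, A_72_P020106, O10663 and A_72_P485031, of which the last had a mean level of only 5.96. CYCS is known to have processed copies elsewhere in mammalian genomes, and which copy each probe reads cannot be settled without a genome, which was not used here.

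**Figure D4:**
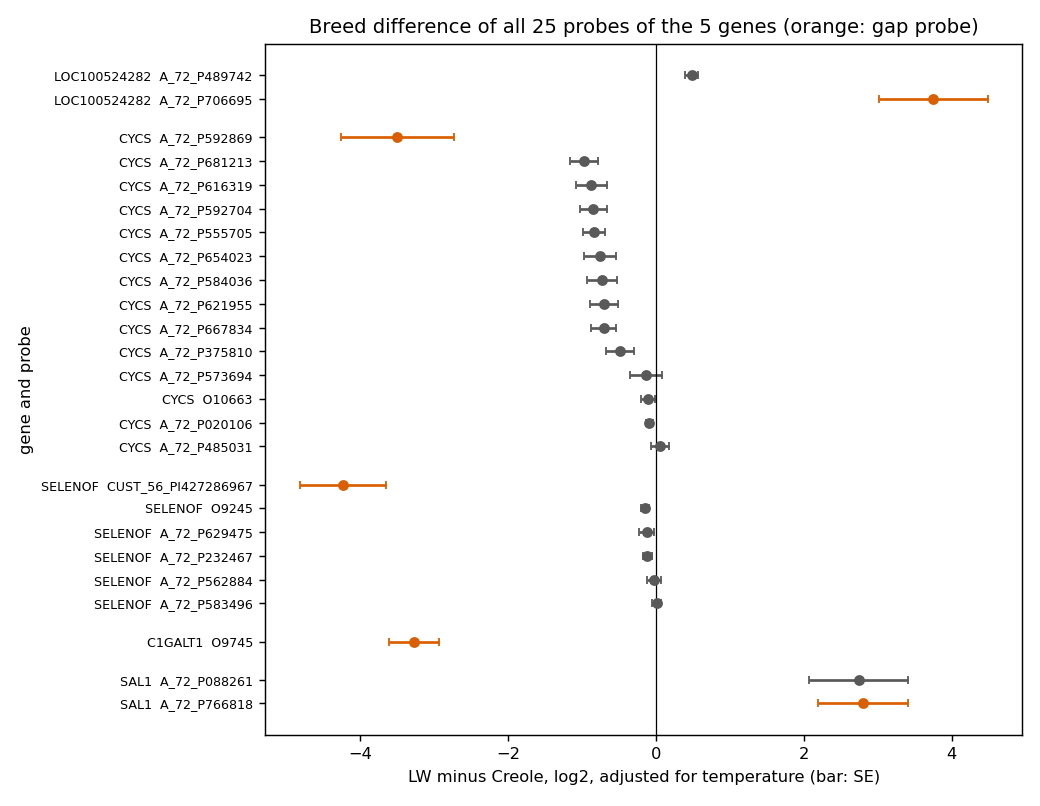
LW minus Creole difference (log2, adjusted for temperature, bars give the SE) of each of the 25 probes, grouped by gene, with gap probes in orange. Both SAL1 probes lie near 2.8, whereas in SELENOF, CYCS and LOC100524282 the gap probe stands apart from the other probes of its gene, which run from −0.15 to 0.01, from −0.98 to 0.05 and at 0.48.

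SELENOF lies on chromosome 4, from 129258943 to 129287727 (Sscrofa11.1). The last 30 bases of its gap probe, CUST_56_PI427286967, overlap the first 30 of A_72_P562884 with 2 differences, in capitals, A34T and A56T counted from the 5′ end of the gap probe. The pair is shown because 1 of the probes split the F1 pigs and the other did not. The probe A_72_P629475 also shares 27 bases with the gap probe with 3 differences.
CUST_56_PI427286967: tctAccattgatcagtctcttaccgAgagg
A_72_P562884: tctTccattgatcagtctcttaccgTgagg

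The SELENOF gap probe was high in every Creole pig, low in every LW pig and in both classes in F1. Creole levels were 10.53, 10.13 and 9.94 in TN and 9.28, 9.14, 10.56, 9.99 and 9.49 in HS. LW levels were 5.58, 5.52, 5.85 and 5.85 in TN and 5.53, 5.54, 5.63, 5.65 and 5.63 in HS. In F1 the levels were 5.46, 5.46, 9.25 and 9.80 in TN and 9.62, 9.56, 9.52, 5.68 and 6.05 in HS. The F1 pigs thus divided into 5 in the upper class and 4 in the lower, with 2 low arrays at each temperature. The upper F1 arrays, 9.25 to 9.80, lay within the Creole range.

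The LW minus Creole difference of the gap probe was −4.24 ± 0.58 (SE), and F1 lay 0.06 ± 0.49 (SE) from the mean of the parents, a mean that no single F1 array was near. With scaling to the 75th percentile of the processed signal, the LW minus Creole difference was −6.13, and with normexp background correction it was −3.74. Levels in LW were at the lower edge of measurement, since 2 of 9 LW arrays were well above background, both of them TN and on slide 5. That slide held no LW HS array. The only lower-class F1 array that was well above background, at 6.05, was on it too. Among HS arrays, where no LW array was well above background, Creole pigs were 17.2-fold higher (mean 9.69 in Creole, 5.59 measured in LW). Each dim LW array entered with the lowest signal that counted as well above background on it. The own signal of the probe was taken where it was higher. The LW mean so obtained was also 5.59, so the value is the measured difference and not a lower bound. It holds for quantile normalization without background correction.

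The other 5 SELENOF probes showed the transcript to be abundant in all breeds. Their mean levels were 11.93 to 14.26, all 26 arrays were well above background, and their LW minus Creole differences were between −0.15 and 0.01. A_72_P562884 ranged from 11.83 to 12.63, with an LW minus Creole difference of −0.03 ± 0.10 (SE). Its r with the gap probe was −0.054 over the 13 arrays of the upper class and −0.134 over the 13 of the lower class, with rho of −0.146 and −0.225. Without the 2 farthest arrays r was −0.20 and −0.323, each over 11 arrays. Among the other 4 probes, r with the gap probe ran from −0.326 to 0.41 in the upper class and from −0.102 to 0.513 in the lower, highest for O9245 in both.

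C1GALT1 lies on chromosome 9, from 77509342 to 77549545 (Sscrofa11.1), and O9745 is its only probe, so no second probe can be set beside it. Its first 30 bases are shown since all that is said of the gene here rests on this probe.
O9745: ggcagatctatttagcattgtgtgtggatt

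C1GALT1 was detected in all Creole pigs and in 1 other. Creole levels were 8.34, 9.14 and 8.19 in TN and 8.33, 8.60, 8.51, 9.73 and 8.55 in HS. F1 levels were 5.28, 5.33, 5.51 and 5.45 in TN and 5.36, 5.29, 8.75, 5.61 and 5.10 in HS. LW levels were 5.49, 5.62, 5.32 and 5.48 in TN and 5.32, 5.35, 5.29, 5.21 and 5.34 in HS. The upper class thus held 8 Creole arrays and F1 HS replicate 3, and the lower class 8 F1 and all 9 LW arrays. No LW array was well above background. By the same rule Creole was 9.78-fold higher than LW (means of 8.67 and 5.38), 8.47-fold in TN and 10.8-fold in HS. The LW means used were 5.38, 5.48 in TN and 5.31 in HS, against 5.38, 5.48 and 5.30 measured, so these are not lower bounds. Adjusted for temperature, the difference was −3.28 ± 0.34 (SE). With scaling to the 75th percentile of the processed signal in place of quantile normalization it was −5.84. With normexp background correction and an offset of 50 it was −2.71. On the measured values F1 lay 1.28 ± 0.28 (SE) below the mean of the parents, and the value was −2.29 with 75th percentile scaling. Both are set by dim levels, as 8 of 9 F1 arrays and all LW arrays were not well above background.

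SAL1 lies on chromosome 1, from 253638017 to 253642835 (Sscrofa11.1). Here both probes showed the same breed order, and neither fell into classes under the rule of 1 log2 with 2 arrays on each side. Both did with a limit of 0.5 log2, with 1 array allowed on a side, or without Creole HS replicate 5, and 1 of them did without F1 HS replicate 4. Their first 30 bases are shown as a pair that reads different stretches of the transcript.
A_72_P766818: atgtcattttacaccttgtgaatgtcaatg
A_72_P088261: aggaagattcatcagctcaccaagaatcaa

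On the SAL1 gap probe, A_72_P766818, Creole levels were 13.34, 9.25 and 11.11 in TN and 9.14, 9.40, 11.89, 7.70 and 10.08 in HS. F1 levels were 12.09, 11.66, 11.17 and 14.54 in TN and 13.32, 13.95, 12.02, 10.60 and 12.63 in HS. LW levels were 13.71, 13.81, 12.41 and 12.93 in TN and 13.99, 13.54, 13.34, 11.60 and 12.30 in HS. LW pigs were high throughout, but 2 Creole arrays, at 13.34 and 11.89, lay inside the LW range, and the highest level of all was an F1 array at 14.54. The spread in Creole was wide, with a mean of 10.24 ± 1.79 (SD, n = 8) against 12.44 ± 1.29 (SD, n = 9) in F1 and 13.07 ± 0.81 (SD, n = 9) in LW. The LW minus Creole difference was 2.80 ± 0.61 (SE), a 6.95-fold higher level in LW. F1 lay 0.77 ± 0.52 (SE) above the mean of the parents.

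The second SAL1 probe, A_72_P088261, gave an LW minus Creole difference of 2.74 ± 0.67 (SE), with levels from 9.28 to 16.40. Across the 26 arrays both probes followed each other closely, with r of 0.996, rho of 0.988 and r of 0.994 without the 2 farthest arrays. Within breeds r was 0.999 in 8 Creole, 0.996 in 9 F1 and 0.99 in 9 LW pigs. Salivary lipocalin is known from glands, and of 10 gland markers only 4 had a tested probe named here. The gland score lay between −0.23 and 0.16 in Creole and between −0.03 and 0.33 in LW. PIP, DCD and ODAM were among those without such a probe. The part of glandular cells in the SAL1 levels was not tested.

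Both LW and Creole arrays were on 4 of the 5 slides. Within these slides the LW minus Creole difference of the gap probes ran from 1.45 to 6.32 for LOC100524282, from −4.95 to −2.05 for CYCS, from −4.59 to −3.64 for SELENOF, from −3.82 to −3.14 for C1GALT1 and from 2.40 to 3.63 for SAL1. Each slide value rests on 1 to 3 arrays of a breed, and the sign was set by the choice of the genes. For SELENOF and C1GALT1 these are measured values against LW arrays that mostly or all were not well above background. On the CYCS probes that passed for temperature, described below, the difference changed sign between slides. On slide 5 they were higher in LW by 0.43 to 1.17, where 2 LW TN arrays lay beside 1 Creole HS array. Over all tested probes, 14.3% passed an adjusted p of 0.05 for LW minus Creole, which is the background for the flanking genes described next.

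Genes near the members were looked at for the same contrast, with the 5 nearest named genes that had a tested probe taken on each side. They lay between 1 and 5304 kb from their member, with the farthest at 5304 kb for LOC100524282 and 4288 kb for C1GALT1. Of 103 probes for 50 such genes, 17 passed the adjusted p of limma, or 16.5%, beside 14.3% over the array. Around SAL1, none of 18 probes passed, and 3 had an unadjusted p under 0.05. Near CYCS, NPY, which encodes neuropeptide Y, was lower in LW on both its probes (−1.05, limma adjusted p = 0.000405, and −0.73, limma adjusted p = 0.00144) at a distance of 814 kb. NFE2L3, a transcription factor of the stress response family, was higher in LW by 0.81 (limma adjusted p = 0.0163).

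Near C1GALT1, 8 of 19 probes passed, but 6 of these were probes of 1 gene, NDUFA4, an oxidative phosphorylation protein, lower in LW by 0.34 to 0.38 log2 on each. The asparagine synthetase gene ASNS (−0.35, limma adjusted p = 0.00631) and the mitochondrial carrier gene SLC25A13 (−0.52, limma adjusted p = 0.0394) were also lower in LW. Near SELENOF, the aminotransferase gene KYAT3 was lower in LW by 0.52 log2 (limma adjusted p = 0.000438). HS2ST1, a heparan sulfate sulfotransferase gene that lies 1 kb from SELENOF, had 2 called probes of opposite sign, 0.31 and −0.32. Near LOC100524282, the chemokine gene CXCL12 (0.43), PCDH15 (0.27) and the kinase gene PRKG1 (0.27) each had 1 called probe, higher in LW.

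The genes whose levels most resembled those of each gap probe over the 26 arrays are given by Pearson's r, as a description. For LOC100524282 they were RPL14, another ribosomal protein gene (0.80), ARPC3, an actin nucleation subunit (0.755), and SLA-DQA1, a class II histocompatibility gene (0.75). For CYCS they were PIGY (0.912), MCT7 (0.83) and RGP1 (0.817). For SELENOF they were DNAH8 (0.81), GHR, the growth hormone receptor (0.793), and SLA-DQA1 (0.773), by another of its probes than for LOC100524282. Those probes had opposite breed orders, with means of 7.42 in LW and 6.63 in Creole on the one like LOC100524282 and 11.37 and 11.88 on the one like SELENOF. For C1GALT1 they were the transcription factor gene USF1 (0.865), the nucleotide synthesis gene PRPS2 (0.832) and the polymerase subunit gene POLR1D (0.803). For SAL1 they were HEBP2, a haem-binding protein gene (0.851), KDR, a receptor of endothelial growth factor (0.775), and CPNE3 (0.755).

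In the 4 probes with classes, r was also taken within a class. Among the 22 arrays above the step, r was 0.587, 0.783 and 0.449 for the genes most like LOC100524282, in the order given, and 0.514, 0.491 and 0.531 for those most like CYCS. It was thus lower than over all arrays for each of these but ARPC3. For SELENOF, r in the upper class of 13 arrays was 0.169, −0.362 and 0.232 for DNAH8, GHR and SLA-DQA1, and in the lower class of 13 it was −0.057, −0.166 and −0.544. For C1GALT1, r in the upper class of 9 arrays was −0.213, 0.222 and 0.353 for USF1, PRPS2 and POLR1D, and in the lower class of 17 it was 0.14, 0.06 and −0.387. USF1 differed less between breeds than C1GALT1, with means of 9.29 (Creole), 8.38 (F1) and 8.14 (LW).

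The contrast of temperature did not choose the genes, though earlier results of these data were known when members and lists were chosen. The change with temperature was tested with breed held fixed. Over the array, 12.2% of probes passed an adjusted p of 0.05 by limma in either direction, and 7.02% were lower in HS. Of the 25 member probes, 6 passed, and each of the 6 was a CYCS probe lower in HS. None of the 11 probes of LOC100524282, SELENOF, C1GALT1 and SAL1 passed, nor did any of them have an unadjusted p under 0.05, which 12032 of the 44703 tested probes had. For C1GALT1 and the SELENOF gap probe this shows little, since 17 and 10 of the 26 arrays were not well above background. The gap probes changed by 0.17 ± 0.61 (SE) for LOC100524282, −0.54 ± 0.62 for CYCS, 0.02 ± 0.48 for SELENOF, 0.21 ± 0.27 for C1GALT1 and −0.51 ± 0.50 for SAL1, with adjusted p by limma from 0.547 to 0.982. The spread within groups was wide on these probes, with an SD from 0.75 for C1GALT1 to 1.75 for CYCS. The other 5 SELENOF probes were measured more finely and changed by between −0.11 and 0.02 (smallest adjusted p by limma 0.399).

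CYCS was lower in HS on 6 of its 14 probes, at between 0.674 and 0.745 of the TN level. The changes ran from −0.57 to −0.42 log2, with standard errors of 0.13 to 0.17. On A_72_P621955, the probe with the largest called change, Creole levels were 10.72, 11.17 and 10.63 in TN and 10.48, 10.17, 10.79, 10.53 and 9.50 in HS. F1 levels were 10.49, 10.31, 11.26 and 10.38 in TN and 10.07, 9.68, 10.12, 10.82 and 10.94 in HS. LW levels were 10.10, 10.55, 10.37 and 10.24 in TN and 9.25, 9.13, 9.68, 9.62 and 9.51 in HS. In LW every HS array lay below every TN array, whereas in Creole and F1 the temperatures overlapped. The change was −0.57 ± 0.15 (SE, limma adjusted p = 0.0155).

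The smallest adjusted p was that of A_72_P555705, which changed by −0.52 ± 0.13 (SE, limma adjusted p = 0.00877), with 13 of 15 HS arrays below the TN mean of their breed. The other called probes were A_72_P616319 (−0.53), A_72_P375810 (−0.52), A_72_P681213 (−0.50) and A_72_P667834 (−0.42), with limma adjusted p from 0.0301 to 0.0453 and 12 of 15 HS arrays below the TN mean of their breed on each. Of the 8 CYCS probes that did not pass, the gap probe among them, 6 had a change below 0. The 6 called probes read 1 transcript or its copies and are not independent, since r between any 2 of them was between 0.864 and 0.971. When each array in turn was left out, A_72_P555705 and A_72_P621955 passed in all 26 fits. Of the other 4, A_72_P375810 passed in 21 of the 26, A_72_P681213 in 13, A_72_P616319 in 12 and A_72_P667834 in 7.

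**Figure D5:**
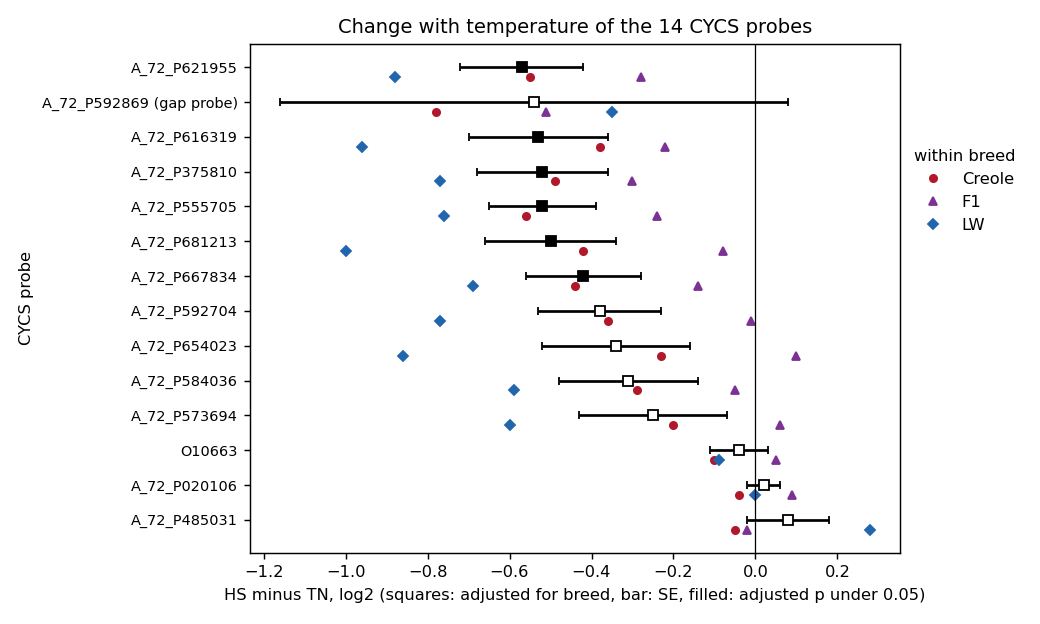
HS minus TN change (log2) of the 14 CYCS probes, as squares with SE bars for the change adjusted for breed, filled where the adjusted p was under 0.05, and as coloured symbols within each breed. The 6 called probes lie between −0.57 and −0.42, and on each the LW value, −1.0 to −0.69, is the lowest of the breeds.

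Within breeds, the 6 called CYCS probes changed by −0.56 to −0.38 in Creole pigs, by −0.30 to −0.08 in the F1 cross and by −1.0 to −0.69 in LW pigs. Only A_72_P681213 in LW passed the adjusted p of limma within a breed (−1.0, adjusted p = 0.037). With slide as a block that count was 0. It was also 0 without LW HS replicates 1, 2 or 5 or any 1 of the LW TN arrays, and 4 without Creole HS replicate 5. No member probe passed in Creole, where 1 of 25 had an unadjusted p under 0.05 beside 11.1% of all probes, or in F1, where none had beside 16.0% of all probes. In LW 10 of 25 had, beside 16.7% of all probes, and 9 of the 10 were CYCS probes. Over all tested probes, 0.0716% passed within Creole, 0.421% within F1 and 1.5% within LW. The interaction of breed and temperature, the test of whether these changes differ, passed in 0.00224% of probes and in no member, with 1 of the 25 at an unadjusted p under 0.05, beside 5.23% of all probes, and a smallest adjusted p by limma of 0.897.

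Of 9 red blood cell markers, 6 were measured and 2 passed for HS minus TN, both lower in HS. They were HBB, a globin chain (−0.85, limma adjusted p = 0.011), and EPB42, a membrane protein of red cells (−0.38, limma adjusted p = 0.0294). The other 4 did not pass, with changes from −0.47 to 0.06. The score of the 6 ranged from 0.03 to 0.47 in TN and from −0.49 to 0.28 in HS. The globin genes HBA1 and HBM were among those without a tested probe named here. With that score as a covariate no CYCS probe passed by limma, and the 6 changed by −0.30 to −0.20. In that fit the calls over the whole array fell from 5447 to 214. The skeletal muscle score ranged from −2.42 to 1.16 in TN and from −1.44 to 2.82 in HS, and with it as a covariate 6 member probes passed. With slide as a block 2 of the 6 passed, A_72_P555705 and A_72_P621955. The changes of the other 4 stayed of like size, −0.49 to −0.41, with limma adjusted p from 0.052 to 0.0738. Within slides HS lay below TN for A_72_P555705 on 4 and for A_72_P621955 on 5 of 5 slides, by means not adjusted for breed. These differences ran from −1.01 to 0.15 and from −1.04 to −0.08. Breeds were not balanced between the temperatures of a slide, so breed and temperature are mixed in them.

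Cytochrome c works between the respiratory complexes and in the apoptosome, and other genes of both settings were measured. Of 16 genes for its electron partners and haem attachment, 4 had a tested probe named here, CYCS included, and none passed for HS minus TN by limma. Of the 4, 1 had an unadjusted p under 0.05, beside 2816 of 9999 named genes, and the median change was −0.16. Of 15 genes of cytochrome c in apoptosis, 13 were measured and 1 passed, the mitochondrial flavoprotein gene AIFM1 (−0.30 ± 0.07 SE, limma adjusted p = 0.0106), and the median change was −0.03. Over all 9999 named genes measured, 12.6% passed and the median change was 0. Here 1 probe stood for each gene, the brightest, which for CYCS was A_72_P573694, not 1 of the 6 called probes.

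Of 25 selenoproteins listed, 22 were measured, SELENOF among them, and 1 passed, SEPHS2, which makes the selenium donor (−0.25 ± 0.07 SE, limma adjusted p = 0.0181). The median change was −0.08, with a range from −0.38 to 0.25, and 4 of the 22 had an unadjusted p under 0.05, beside 2816 of the 9999 named genes. Of 10 genes for selenoprotein synthesis and for partners of SELENOF, 9 were measured and 2 passed, SEPHS1 (−0.20 ± 0.06 SE, limma adjusted p = 0.0212) and the folding chaperone calreticulin, CALR (0.17 ± 0.05 SE, limma adjusted p = 0.0229), with a median of −0.02.

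In mucin-type O-glycan synthesis, 15 of 26 genes were measured and 3 fell in HS, with a median change of −0.04 over the list. With the red blood cell score as a covariate none of the 9 calls in the pathway lists passed by limma. GALNT1, which adds the first sugar, fell by 0.28 ± 0.05 (SE, limma adjusted p = 0.00166), GCNT1, which branches core 1, fell by 0.20 ± 0.06 (SE, limma adjusted p = 0.0363), and the sialyltransferase gene ST6GALNAC4 fell by 0.22 ± 0.07 (SE, limma adjusted p = 0.0439). ST6GALNAC4 and C1GALT1C1 are named outside the rule for named genes, after their values were seen. C1GALT1C1, the chaperone that C1GALT1 needs, was measured at a mean level of 8.88 and did not pass (−0.22, limma adjusted p = 0.0889). Its mean level was 8.84 in Creole and 8.85 in LW pigs.

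Of 20 lipocalins, 8 were measured and 2 passed in opposite directions, with a median change of −0.17. RBP4, the retinol carrier of plasma, was higher in HS by 0.58 ± 0.11 (SE, limma adjusted p = 0.00114), and PTGDS, which makes prostaglandin D, was lower by 1.20 ± 0.23 (SE, limma adjusted p = 0.0017). Both SAL1 probes, at −0.45 ± 0.55 and −0.51 ± 0.50 (SE), did not pass (limma adjusted p = 0.644 and 0.547).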

How the data were processed

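RNA of SCAT from 26 pigs was hybridised on 26 one-colour Agilent arrays on 5 slides, 1 pig per array. The authors deposited the scanner output of Agilent Feature Extraction 10.10.1.1 (named, with limma, in the submitters' processing notes), in which each spot has a median intensity, not normalized, and a processed intensity with background removed. They also deposited a table of quantile-normalized log2 values of the same arrays, used as an alternative only.

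Here, control spots and non-uniform spots were left out. Median intensities were quantile-normalized and put on the log2 scale, and spots of 1 probe were averaged. A probe was tested if 8 or more arrays had it well above background, which 44703 did. Temperature was tested with breed as a fixed effect, and each breed and the interaction from 6 group means, with limma 3.58.1 (lmFit, eBayes with trend) in R 4.3.3. Benjamini-Hochberg adjustment ran over all tested probes at 0.05. The authors' random effects (pen, slaughter day, parents) are not in the labels and were not fitted. Spots were named by RefSeq accession (10146), symbol (13915) or synonym (194), and 36051 stayed unnamed. Gene positions are RefSeq extents on Sscrofa11.1, and no exon or UTR annotation was used. A listed gene counts as measured only where a tested probe carried its name, and unnamed spots may read others. For a gene list, the brightest tested probe stood for each gene, and a marker score is the mean of its genes' levels, each centred over the arrays. Correlations are given with no test. The number of arrays limits the precision. The statistics were tested on simulated data.

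All member probes were named, with the 3 genes most like each gap probe, the 2 list genes of smallest adjusted p past the threshold and the called flanking genes. The members and lists were chosen with earlier results of these data known. The alternatives were other normalizations, filters, fits, covariates and gene rules, and leaving out each array. Those with the muscle score, and leaving out arrays for the classes, were chosen after seeing the data.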

Additional observations from a re-analysis of the deposited data

Results flagged for a closer look

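Among 125 groups of 4 or 5 arrays of the member probes, 8 held an array that stood far from the rest of its group by Dixon's ratio, where chance gives about 1 in 20. On the C1GALT1 probe, F1 HS replicate 3 was at 8.75 against 5.10 to 5.61 in the others, and Creole HS replicate 4 was at 9.73 against 8.33 to 8.60. On the LOC100524282 gap probe, LW HS replicate 2 was at 12.76 against 13.99 to 14.41. On SELENOF A_72_P629475, Creole HS replicate 5 was at 11.47 against 12.10 to 12.26.

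CYCS held the other 4. On A_72_P555705, Creole HS replicate 5 was at 10.63 against 11.49 to 11.73, and LW TN replicate 2 was at 11.57 against 11.05 to 11.13. On O10663, F1 TN replicate 4 was at 5.91 against 6.31 to 6.36. On A_72_P592704, F1 TN replicate 3 was at 12.61 against 11.88 to 11.99.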

How the results depend on the processing

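Over all probes, HS minus TN calls went from 5447 to 3531 without the breed term and to 214 with the red blood cell score. The 6 calls among the member probes became 2 with slide as a block, 0 without the breed term and 0 with the red blood cell score. The 6 changes themselves, −0.57 to −0.42, were −0.53 to −0.41 with slide, −0.55 to −0.40 without breed and −0.30 to −0.20 with that score. A_72_P555705 and A_72_P621955 passed in all 26 fits that each left out 1 array and in 9 of 11 other settings. Leaving out 1 array gave 2 to 7 member calls. It gave 2 without F1 HS replicate 2, F1 TN replicate 3, Creole TN replicate 2 or LW TN replicates 2 or 3, and 3 without LW HS replicates 1, 2 or 5, LW TN replicates 1 or 4, F1 HS replicate 3 or Creole HS replicate 5. The single LW call became 0 with slide as a block and 5 with array weights. Leaving out 1 array gave 0 to 4, with 0 without LW HS replicates 1, 2 or 5 or any LW TN array, and 4 without Creole HS replicate 5. The 9 calls in the pathway lists became 0 with the red blood cell score and 16 where any probe could stand for a gene. With 10 flanking genes a side the 17 flanking calls became 29.

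With 75th percentile scaling, LW minus Creole was −6.13 for SELENOF and −5.84 for C1GALT1, and F1 lay at −2.29 from the parents' mean for C1GALT1. With only probes well above background on every array, those 2 gap probes had no value and 2 probes with classes were left. The 4 probes with classes became 6, with both SAL1 probes, at a limit of 0.5 log2 or with 1 array allowed on a side, and 4 to 6 leaving out 1 array. HS minus TN changes that were not called changed sign: SELENOF to −0.03 with normexp and −0.77 with the red blood cell score, C1GALT1 to −0.23 with that score and LOC100524282 to −0.03 without the breed term. Leaving out 1 array, they ran from −0.22 to 0.23, −0.02 to 0.29 and −0.19 to 0.53. The changes of the CYCS and SAL1 gap probes, not called either, stayed below 0, from −0.86 to −0.26 and from −0.68 to −0.17. The causes were not tested. No paired analysis was possible because the labels name neither litter nor pen. The replicate numbers used here follow the order of the samples in the series, are not from the labels and pair no animals. Signal over background limits the SELENOF gap probe and the C1GALT1 probe in LW and in F1.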
